A study of Mus musculus with 26 samples.

Results

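The assays described here are 33 of the 315 microRNA assay positions that were measured by stem-loop RT-qPCR in mouse cells, and they are those whose level was highest in pancreatic islets. Stem-loop RT-qPCR reads a mature microRNA through a primer specific for its end and a TaqMan probe, and its value is the threshold cycle (Ct), which is higher where there is less RNA. The relative level used below is a reference minus the assay's own Ct, where the reference of a sample averages those assays that stayed below a Ct of 35 throughout the 26 samples, separately for plates A and B, C, and D. It is in cycles and stands for a log2 level if each cycle doubles the product. An assay was chosen when the medians of 5 groups, islets, hepatocytes, fibroblasts, embryonic stem cells (ESC) and untreated induced pluripotent stem cells (iPSC), spanned at least 3 cycles and the islet median exceeded the highest of the other 4 by at least 1 cycle, a distance called the margin here. Where no Ct was given, or one above 35, the limit of 35 was used. Both limits were met by 35 of the 315 positions (11.1%), of which A12 and B64 are excluded from the set by name. The members were thus chosen by measured values, the medians of relative level in these 5 groups, and every comparison with islets below is a description without a test.

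The 26 samples held 3 of adult pancreatic islets and 3 of adult hepatocytes, both isolated from C57BL/6 mice, and 5 of tail-tip fibroblasts. The pluripotent samples were 4 of activin-treated iPSC, 3 of the ESC line D3, 3 of the ESC line R1, and 5 of untreated iPSC, each a separate clone made from tail-tip fibroblasts. Treated iPSC were clones 2 and 3 with 2 samples each, kept without feeder cells for 5 days in activin A, at 100 ng/ml by the treatment protocol, although the sample labels use another volume unit. Untreated iPSC and ESC grew on inactivated mouse embryonic fibroblasts with leukemia inhibitory factor. Separate animals or cultures are not recorded for the islet, hepatocyte, fibroblast and ESC samples, so p-values cover sample-to-sample spread alone, and that spread may be technical.

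Pancreatic islets are clusters of hormone-secreting cells in which insulin-producing beta cells lie beside glucagon-producing alpha cells and other endocrine cells. MicroRNAs are short RNAs that pair with messenger RNAs and lower their stability and translation, and some of them are known to be abundant in endocrine cells of the pancreas and to act in insulin secretion. The files name assays by plate position and give no microRNA names, so none of the 33 can be tied to a named microRNA, its sequence or its targets. The label of the islet samples could for the same reason not be checked against known islet microRNAs. In whole islets, fewer cells of a type and less RNA per cell cannot be told apart.

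Islet samples reached a Ct below 35 at 267 to 273 of the 315 positions, hepatocytes at 210 to 219, fibroblasts at 187 to 272, treated iPSC at 267 to 276, ESC at 241 to 270 and untreated iPSC at 242 to 275. Fibroblast replicate 5 had the lowest count, 187, and its mean reference Ct was the highest on plates A and B, at 29.9. An assay without a Ct therefore stands at a relative level of -5.14 there, against -11.82 to -6.53 in the other 25 samples. All 33 members had a Ct below 35 in each of the 3 islet samples. That held for 14 members in all hepatocyte samples, for 9 in all fibroblast samples, for 22 in all treated iPSC, for 11 in all ESC and for 18 in all untreated iPSC. Of the 858 member values, 246 were at the limit or had no Ct, so many distances below are set in part by the limit of 35. No member value lay below a Ct of 15, a range in which the whole table has 26 values.

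On the relative scale, every islet sample stood above each of the 23 other samples at 16 members, against 5.71% of all positions. The contrast is the one that chose the members, and nothing is read from the count. In raw Ct the islets stood apart at 20 members, against 8.57% of all positions, and 11 members were separate on both scales. Without fibroblast replicate 5 the count on the relative scale was 18, against 6.67% of all positions, since B18 and B83 overlapped the islets only through undetected values of that sample. Set against one group at a time, no overlap was seen at 27 members with hepatocytes (30.2% of all positions), at 25 with fibroblasts (18.4%), at 28 with ESC (21%) and at 27 with untreated iPSC (23.5%). The median distance of group means over the 33 members was 5.07 cycles from hepatocytes, 4.38 from fibroblasts, 3.68 from ESC and 3.51 from untreated iPSC. Over all 315 positions the same medians were 0.11, 0.60, 0.02 and 0.11 cycles.

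**Figure D1:**
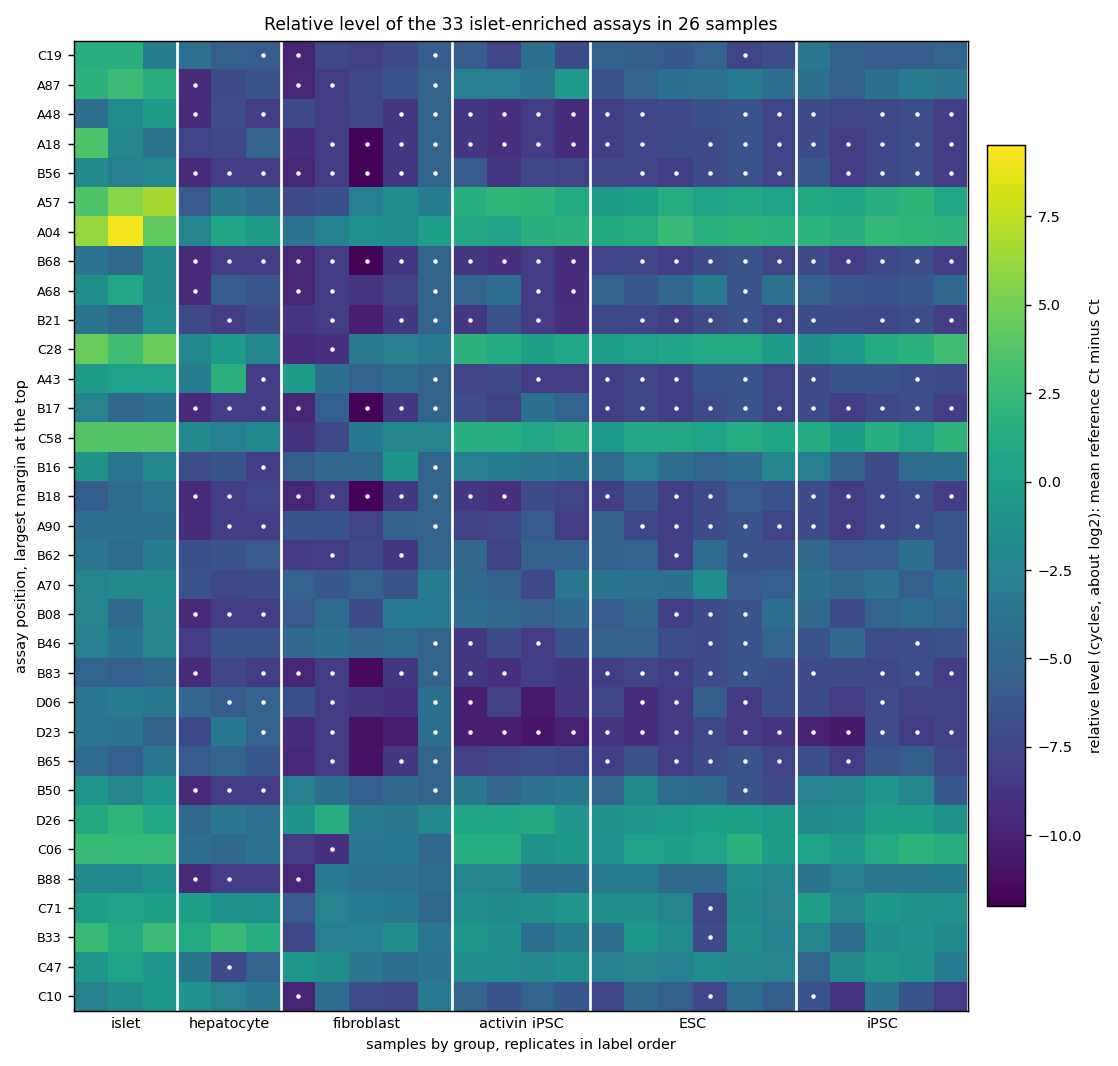
Relative level (colour, in cycles, about log2) of the 33 members in each of the 26 samples, members ordered by margin from the top, groups separated by white lines and white dots marking values at the limit of 35 or without a Ct. The 3 islet columns carry no dot, while 246 values in the other groups do.

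At 18 of the 33 members the group next below islets in median relative level was one of the untreated pluripotent groups, at 7 it was hepatocytes and at 4 fibroblasts. At B21 it was untreated iPSC and at D06 hepatocytes, although the median Ct of that group was at the limit. Below 35 were 2 of 3 hepatocyte samples at B21 and 4 of 5 untreated clones at D06. At the remaining 4, B17, B56, B68 and B83, the median of each of the other 4 groups used in the choice was at the limit. Treated iPSC, which were not used in it, had all 4 samples below 35 at B17 and B56. Fibroblasts had the lowest median relative level at 21 members and hepatocytes at 10. The median Ct was at the limit at 10 members in fibroblasts and at 11 in hepatocytes. Between medians at the limit the order depends on the reference Ct of the samples and is no difference in detected RNA. Of the 4 groups, 15 members had none with its median at the limit.

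Assays A48, A18, B56, B68 and B21 were read in islets and seldom elsewhere. B56 had a Ct of 26.6, 28.3 and 28.6 in the islet samples and no Ct in any of the 3 hepatocyte or 5 fibroblast samples. The treated iPSC gave 32.4 and 34.6 for clone 2 and 34.2 and 33.4 for clone 3, whereas 1 of 6 ESC samples, at 34.4, and 1 of 5 untreated clones, at 34.3, lay below 35. Every one of these readings was later than all 3 islet samples.

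B68 had a Ct of 28.5, 30.2 and 28.2 in islets. The hepatocyte samples gave 35.4, 35.6 and 36, all above the limit. Across all 23 other samples 1 was below 35, replicate 1 of ESC line D3, at 34.6. B68 thus had the fewest readings below 35 outside islets, and its margin of 3.62 is set by the limit.

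A48 had a Ct of 29, 27.2 and 26.7 in islets. In hepatocytes 1 of 3 samples was below 35, at 33.8, and in fibroblasts 3 of 5 were, at 32.5, 34.8 and 30.5. Neither treated clone reached 35, with values from 37.2 to 39.3, while 2 of 6 ESC samples, at 34.2 and 34.7, and 1 of 5 untreated clones, at 34.4, did. Every islet sample lay lower in Ct than the lowest of these, which was fibroblast replicate 3.

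A18 varied most within islets, with a Ct of 21.2 in replicate 1, 27.5 in replicate 2 and 30.2 in replicate 3. Hepatocytes gave 33.2, 34.2 and 32.1. One fibroblast sample reached 34.6 and 1 ESC sample 34.3, and 0 of 5 untreated and 0 of 4 treated iPSC samples were below 35. The relative level spanned 7.32 cycles between the islet samples, the widest of the 33. With 1 sample left out, the margin of 5.39 ran from 4.32 without hepatocyte replicate 1 to 8.15 without islet replicate 3.

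B21 had a Ct of 28.4, 30.2 and 28 in islets, against 32.8, 39.4 and 34 in hepatocytes. Below 35 were 2 of 5 fibroblast samples, at 34.1 and 33.4, 2 of 4 treated samples, at 32.7 and 34.95, 1 of 6 ESC samples, at 34.4, and 1 of 5 untreated clones, at 33.8. The islet samples did not overlap any of them.

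C19, A87 and A68 were read in most samples, at late cycles outside islets. C19 had the largest margin, 6.91 cycles, with a Ct of 24.3, 25.1 and 30.2 in islets and 32.5, 33.2 and none in hepatocytes. Fibroblasts gave 38.9, 33.3, 31.6, 31.1 and 38.1, and treated iPSC gave 32 and 32.7 for clone 2 and 28.4 and 32 for clone 3. In ESC the Ct ran from 32 over a median of 32.4 to the limit, and in untreated iPSC it was 31.9, 31.1, 33.2, 30.9 and 31.2. Islet replicate 3 stood later than the other islet samples, and in raw Ct replicate 1 of treated clone 3 was earlier than it. On the relative scale, at 1.60, 1.56 and -2.91, all islet samples stayed above the highest other sample, untreated clone 1 at -3.48.

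A87 had a Ct of 22.9, 22.8 and 24.9 in islets and 35.2, 34 and 33.4 in hepatocytes. Fibroblasts gave 37.7, none, 30.5, 33.1 and 35.4. Treated iPSC were at 29.3 and 28.8 in clone 2 and 30.4 and 26.2 in clone 3, ESC ran from 31.2 to 33.5 with a median of 31.8, and untreated iPSC were at 32, 32.3, 31.7, 31.2 and 30.4. Islets and the other samples did not overlap on either scale, and the nearest was replicate 2 of treated clone 3.

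A68 had a Ct of 26.1, 24.6 and 28.2 in islets, against none, 32.6 and 33.2 in hepatocytes. Of the fibroblasts 2 of 5 were below 35, at 31.9 and 34.3, and of the treated iPSC those of clone 2 alone, at 31.7 and 30.3. ESC ran from 31.05 over a median of 31.9 to the limit, and untreated iPSC were at 33.4, 33.1, 34.2, 34.3 and 31.5. The margin was 3.55 cycles and no sample overlapped the islets.

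**Figure D2:**
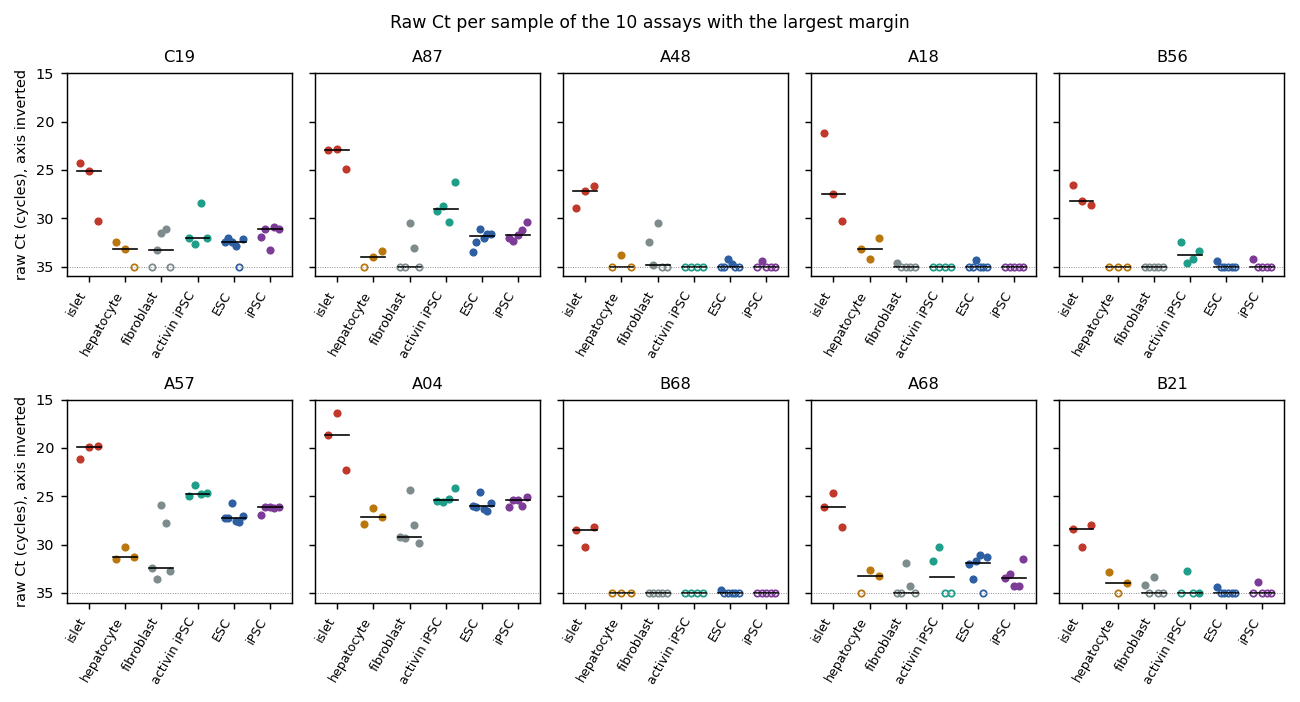
Raw Ct (inverted axis, cycles) of the 10 members with the largest margin, 1 point per sample by group, open points at 35 for values at the limit or without a Ct, black bars for group medians. A57 and A04 are read in every sample, while B68 and B56 have open points in most of the other samples.

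A57, A04, C28, C58 and C06 formed a set with intermediate levels in pluripotent cells and low levels in fibroblasts and hepatocytes. A57 had a Ct of 21.2, 19.9 and 19.8 in islets and 31.5, 30.2 and 31.3 in hepatocytes, and fibroblasts gave 32.4, 33.5, 25.9, 27.8 and 32.7. Treated iPSC were at 24.9, 23.8, 24.8 and 24.7, ESC between 25.7 and 27.6 with a median of 27.2, and untreated iPSC at 26.9, 26.1, 26.1, 26.2 and 26.1. The islets lay 9.91 cycles above hepatocytes in relative level, the largest distance from that group among the members, and 9.48 above fibroblasts. The margin over untreated iPSC was 4.61.

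A04 had a Ct of 18.7, 16.4 and 22.3 in islets, against 27.8, 26.2 and 27.2 in hepatocytes. It was at 29.2, 29.3, 24.4, 28 and 29.8 in fibroblasts, at 25.5, 25.6, 25.3 and 24.2 in treated iPSC, and between 24.6 and 26.5 in ESC. The untreated clones were close together, at 26.1, 25.4, 25.3, 26.1 and 25. Its islet samples spread over 4.87 cycles of relative level, the second widest of the 33, and still lay above every other sample.

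C58 varied least in islets, with relative levels of 3.75, 3.70 and 3.73. The same assay stood at -1.77, -2.70 and -1.94 in hepatocytes and between -8.81 and -2.10 in fibroblasts. Treated iPSC had 1.52, 1.47, 0.80 and 1.36, ESC ran from -0.43 to 1.32, and untreated iPSC had 1.23, -0.30, 1.45, 0.36 and 1.98. In relative level the islets were apart from all other samples at C58, C28 and C06, but not in raw Ct, where treated or untreated iPSC samples reached the islet values.

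C28 had relative levels of 4.51, 2.87 and 4.55 in islets and -1.99, -0.40 and -1.92 in hepatocytes, with untreated iPSC between -1.26 and 2.82. C06 had 2.59, 2.37 and 2.47 in islets and -4.21, -4.53 and -3.86 in hepatocytes, with untreated iPSC between -0.39 and 1.89. The margins of these assays were 3.30 and 1.36. Each of the 5 assays was higher in all untreated iPSC and in all ESC samples than in any fibroblast sample. Such separation occurred at 6 members for untreated iPSC over fibroblasts (19% of all positions), the sixth being C71, and at 5 for ESC over fibroblasts (17.8%). Only A43 was separate in the opposite direction in both comparisons, where 14.9% and 13.7% of all positions were. Since the range of the medians was part of the choice, these counts too carry no test.

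Over the 23 samples that were not islets, the 10 pairs among these 5 assays had Pearson correlations of relative level from 0.851 to 0.951. They were the 10 highest of the 78 pairs among the 13 members with at least 20 of these samples below 35, for which the median was 0.30, and the next pair, D26 and C47, had 0.751. The assays were singled out after these values were seen. The points share libraries, A57 and A04 share a reference, as do C28, C58 and C06, and A57, A04 and C58 are among the assays averaged in their references. Much of the correlation is between groups. After subtraction of group means the 10 correlations ran from 0.449 to 0.871. Fibroblast replicates 1 and 2 stood at -7.12 and -6.77 for A57, at -9.33 and -9.03 for C28 and at -8.81 and -7.34 for C58. They stood at -8.23 and -9.03 for C06 and at -3.85 and -2.57 for A04, and for all 5 assays below the 3 other fibroblast samples. Without the fibroblasts the correlations within groups ran from -0.023 to 0.757 over 18 samples.

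**Figure D3:**
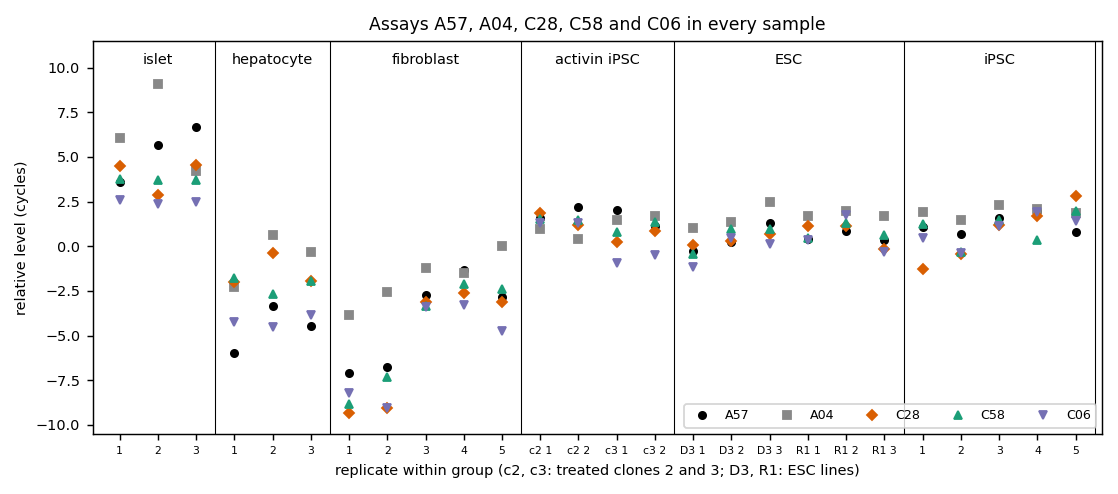
Relative level (cycles) of A57, A04, C28, C58 and C06 in each sample, with groups separated by vertical lines and replicates in label order. For all 5 assays fibroblast replicates 1 and 2 lie lowest, from -9.33 to -6.77 for A57, C28, C58 and C06 and at -3.85 and -2.57 for A04. The pluripotent groups lie between the fibroblasts and the islets for all 5 assays.

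Hepatocytes came next to islets at A18, A43, B33, B65, C10, D06 and D23. B33 had a Ct of 22.2, 24.4 and 23.7 in islets and 24.4, 24.3 and 25.5 in hepatocytes, against 32.7, 29.5, 25.8, 27.8 and 33.4 in fibroblasts and between 28.7 and 31.1 in untreated iPSC. Islets and hepatocytes overlapped, with group means 0.44 cycles apart in relative level, the smallest distance from hepatocytes of any member. The margin of 1.16 was below the required 1 without islet replicate 1 (0.54) or 3 (0.43) and without hepatocyte replicate 1 (0.57) or 3 (0.71). At B33, C10 and D06 every untreated iPSC sample was lower in relative level than every hepatocyte sample, as at 18.7% of all positions. At D06 this order depends on values at the limit and on the plate D reference. There 1 of 3 hepatocyte samples had a Ct below 35, against 4 of 5 untreated clones.

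C10 had a Ct of 28.5, 28 and 27.8 in islets and 29.7, 30.2 and 32.6 in hepatocytes, with the smallest margin of the 33, 1.05. That margin was 0.87 and 0.44 without islet replicates 2 and 3, and 0.89 and 0.41 without hepatocyte replicates 2 and 3. A43 had a Ct of 24.9, 25.2 and 26.2 in islets, while hepatocytes gave 28.4, 25.3 and none. Its margin of 3.23 rested on that empty value, with 0.97 without hepatocyte replicate 3 and 4.62 without hepatocyte replicate 2. A43 was also read in fibroblasts, at 25.6, 30.8, 28.4, 30.8 and none, and late or not at all in untreated iPSC, at 33.3, 34.1 and 34.1 in 3 of 5 clones.

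B65 had a Ct of 29.2, 31.1 and 30 in islets and 31.4, 31.9 and 32.9 in hepatocytes, with a margin of 1.45 that was 0.91 without islet replicate 3. D06 had 30.2, 29.4 and 30.5 in islets and 32.7, 35.9 and 35.5 in hepatocytes. D23 had 30.3, 30.2 and 32.6 in islets and 34.9, 32.7 and none in hepatocytes. At D06 and D23 the hepatocyte median on the relative scale, -5.26, was a value at the limit. At D06 the Ct of 2 of 3 hepatocyte samples was above 35, and at D23 that of 1 of 3 was missing. The plate D reference of hepatocytes was at a Ct of 27.7 to 29.7. The margin of D23, 1.54, was 0.75 and 0.84 without islet replicates 1 and 2, 0.57 without hepatocyte replicate 1 and 2.50 without hepatocyte replicate 2.

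Next below islets came fibroblasts at A48, A90, B08 and B46. A90 was the steadiest of these in islets, with relative levels of -4.03, -4.09 and -4.08, against -9.29 and 2 values at the limit in hepatocytes and between -7.56 and -5.14 in fibroblasts. B46 stood at -2.61, -3.69 and -2.04 in islets and between -5.14 and -4.04 in fibroblasts. B08, at -2.27, -4.68 and -2.04 in islets, overlapped fibroblasts, which reached -3.17, and its margin of 2.15 was 1.06 without islet replicate 1 and 0.95 without islet replicate 3. In hepatocytes B08 had 0 of 3 samples below 35. That B08, A90 and B46 were lower in every hepatocyte than in every fibroblast sample was shared by 6 members in all, with B16, A70 and B50 (19% of all positions).

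The other members had a pluripotent group or the limit next below islets and margins from 1.08 to 3.19 cycles. B17 and B18, whose positions follow B16, were detected late outside islets. B17 had a Ct of 27.2, 30.3 and 30.7 in islets and none below 35 in hepatocytes, ESC or untreated iPSC, but 33.3 and 33.7 in treated clone 2 and 30.9 and 31.1 in treated clone 3. The 4 treated samples were thus all below 35 where 0 of 5 untreated clones were, but untreated clones 2 to 5 had a Ct of 36, 37, 36.8 and 36.3. Over all members 78.8% of values in treated iPSC were below 35, against 69.1% in untreated iPSC. Over all positions these shares were 86.3% and 81.7%, so more values were read in treated iPSC in general. The mean reference Ct on plates A and B was 25.9 to 26.8 in treated and 26.8 to 28.2 in untreated iPSC. B56 and A90 also had all 4 treated samples below 35, with 1 of 5 untreated clones. Their log2 differences, treated minus untreated, were -0.02 and -0.21. B18 had 30.5, 30 and 30.1 in islets, against 34.5 in 1 hepatocyte sample, 33.8 and 33.4 in treated clone 3, and 33.7, 34.3 and 34 in 3 of 6 ESC samples. B83 had 29.8, 31.1 and 31.2 in islets and between 33.9 and 34.8 in the 6 other samples below 35.

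B50 and B88 were at or near the limit in hepatocytes and measurable in all the other groups. B50 had a Ct of 25.5, 27.7 and 27.3 in islets, 0 of 3 hepatocyte samples below 35, and 30.5, 28.9, 28.5, 30.4 and 33 in untreated iPSC. Its margin of 1.45 was 0.78 without islet replicate 1 and 0.77 without islet replicate 3. B88 had 26.6, 27.5 and 27.4 in islets and 1 of 3 hepatocyte samples below 35, at 34.9. D26 and C47 were also low in hepatocytes, by 5.37 and 5.02 cycles against islets, but D26 overlapped fibroblasts and treated iPSC and C47 overlapped fibroblasts and untreated iPSC. The margin of C47, 1.08, was 0.75 without untreated clone 1 or 5 and 1.62 without islet replicate 3. That of C71, 1.18, was 0.74 and 0.64 without hepatocyte replicates 2 and 3 and 0.96 without untreated clone 2 or 5. B16, B62 and A70 had margins of 2.42, 2.24 and 2.20 and overlapped at least 1 of the other groups, and the margin of B16 was 1.59 without islet replicate 1.

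**Figure D4:**
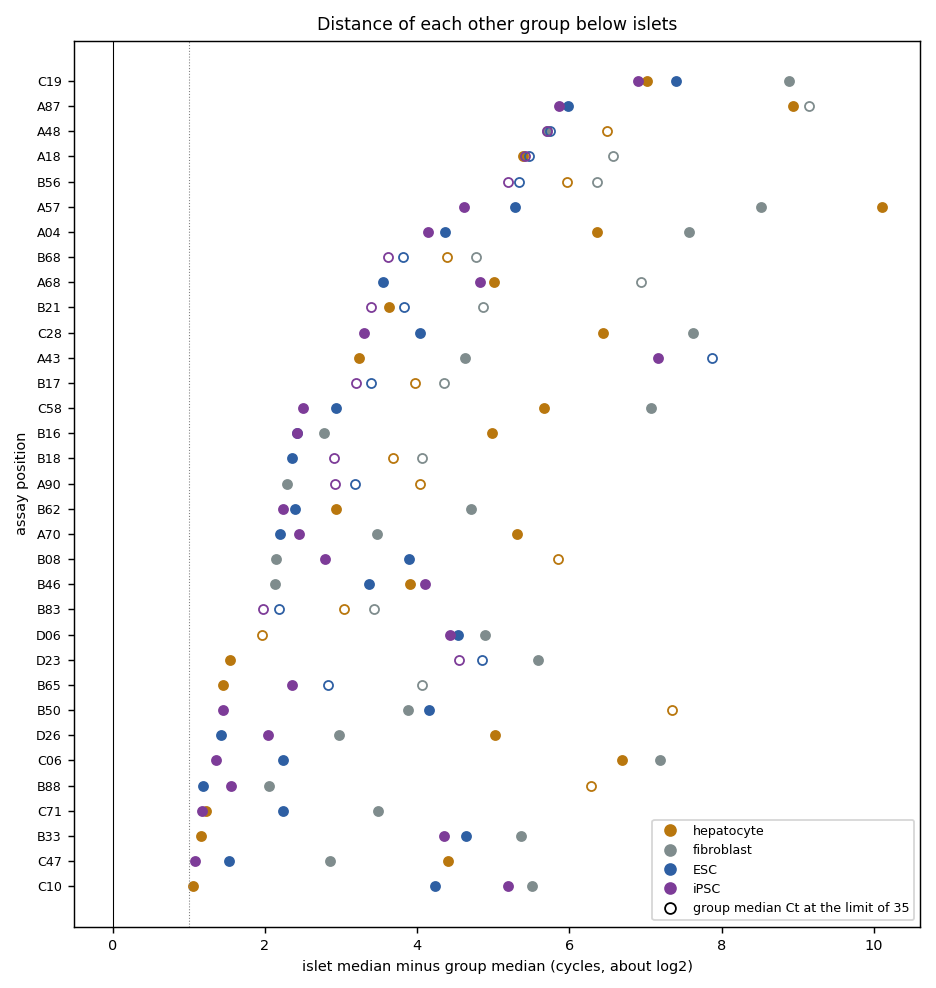
Islet median minus the median of each other group (cycles, about log2) for the 33 members, open where the group's median Ct was at the limit of 35, with a dotted line at the required margin of 1. The nearest point of each row is its margin, from 6.91 for C19 to 1.05 for C10, and the farthest group is fibroblasts in 21 rows and hepatocytes in 10. The order among open points depends on the reference Ct of the samples.

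The members nearest the limits of the choice are given for orientation. Just inside the margin were C10 (1.05), C47 (1.08) and B33 (1.16), and just outside it was C48 (0.90), while B32 (0.96) missed both limits. C31 and A31 met the margin, at 1.04 and 1.49, but their medians spanned 2.37 and 2.31 cycles. The lowest spans among members were 3.43 at B83 and 3.49 at C71.

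When the choice was repeated without an islet sample, 37, 45 and 37 positions met it without islet replicates 1, 2 and 3, and they held 30, 31 and 28 of the 33 members. Between the islet samples the members spread by a median of 1.66 cycles, against 1.56 over all 315 positions, and replicate 3 was the highest at 17 members.

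Plate B held 14 of the 33 members, plate A 9, plate C 7 and plate D 3, which were 14.6%, 9.38%, 7.37% and 10.7% of their positions. Neighbouring positions among the members were B16, B17 and B18.

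For islets against hepatocytes the authors also deposited their own differences, based on RNU6. In the authors' deposited table, where a negative value means more RNA in islets, 32 members have a value and all 32 are negative, as are 80.4% of all values. The median in the authors' deposited table is -8.46 over the members and -3.33 over all 286 values. With the small nuclear RNA RNU6 as the reference in place of the mean Ct, recovered from that table, the median distance of islets above hepatocytes was 7.51 cycles over the members and 2.98 over all positions. The RNU6 reference lay 2.38 cycles later in islets than in hepatocytes on plates A and B. A change of reference moves every distance on a plate set by the same amount. Thus A87 went from 9.74 with the mean Ct to 12.95 with RNU6, and A57 from 9.91 to 13.12. The larger medians, over members and over all positions, are therefore the change of reference alone. All 33 members kept a positive distance, and 29 did not overlap, against 39% of all positions.

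Activin A is a growth factor that steers pluripotent cells in culture to an endoderm fate, and islets derive from endoderm. The treated samples entered none of the medians that chose the members. At 29 members every islet sample lay above all 4 treated samples in relative level, against 30.2% of all positions, with the exceptions of B16, B17, B08 and D26. The smallest distance of means was 0.93 cycles, at D26, where islets had 1.04, 2.05 and 0.88 and treated iPSC 0.66, 0.63, 1.08 and -0.80. Because the islet side of this comparison chose the members, it was not tested. The median distance was 3.43 cycles, against 0.74 over all positions.

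Treated and untreated iPSC were compared by limma, fitted over all groups with the treated samples averaged per clone. The median of untreated iPSC was among those that chose the members, so the untreated side of this contrast is not independent of the choice. Of 29 members tested, limma called 0 at an adjusted p of 0.05, against 0.352% of 284 positions, and 0 had an unadjusted p under 0.05, against 8.8%. The 4 members not tested, A18, A48, B68 and D23, had too few values below 35 in these groups. The log2 differences ran from -1.74 at D06 to 1.64 at A87, 11 of them above 0 and 18 below, with a median of -0.41, against -0.11 over all positions. The 95% intervals had a median half-width of 2.32, and 1 of the 29 lay within 2 on the log2 scale. The others each reached past a 4-fold difference in at least one direction. Treated cells were also without feeder fibroblasts, and treatment and feeder removal cannot be told apart.

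The smallest p was at D06, with a Ct of 35.4 and 32.5 in treated clone 2 and 34.7 and 33.7 in treated clone 3, against 32.2, 32.8, 39.3, 34.5 and 34.98 in the untreated clones. Its log2 difference was -1.74 (SE 0.98, limma adjusted p 0.819). B46 had a log2 difference of -1.25 (SE 0.74, limma adjusted p 0.860). It was -0.81 without replicate 1 of treated clone 3, and with RNU6 as the reference its sign turned, to 0.27. A87 had 1.64 (SE 1.00, limma adjusted p 0.860), and 0.84 without replicate 2 of treated clone 3. Its treated samples ran from -3.59 to -0.39 in relative level and the untreated clones from -5.50 to -3.00, so the groups overlapped. B17, read in all treated and in no untreated sample below 35, had 1.54 (SE 1.26, limma adjusted p 0.989), a size that depends on the limit. It was tested only because enough treated samples were below 35, as were B56, A90, B18, B21 and B83. Nothing is read from the direction of these differences.

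**Figure D5:**
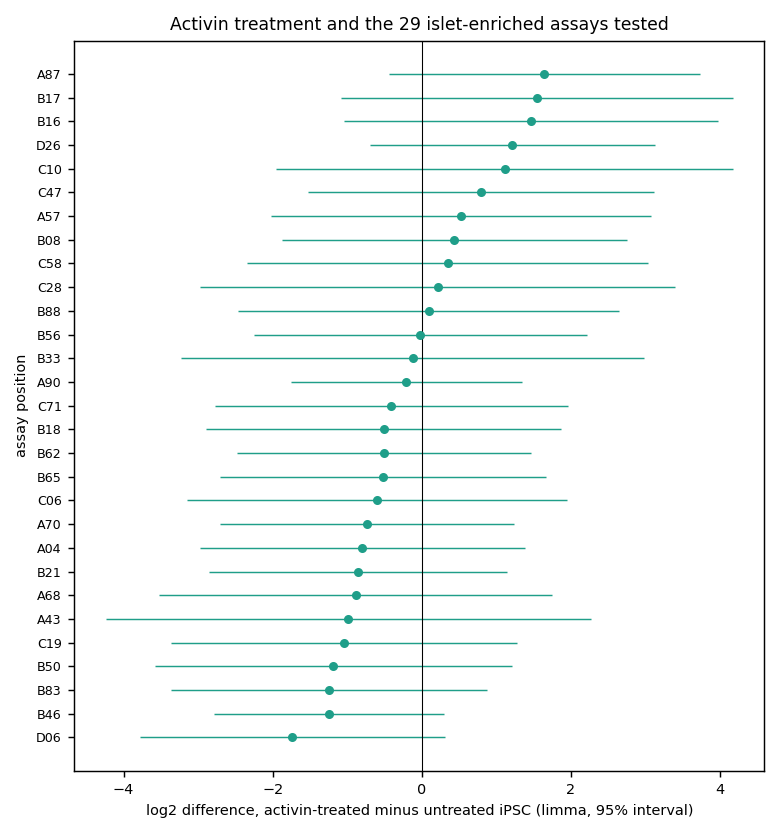
Log2 difference of activin-treated minus untreated iPSC for the 29 members tested, points for limma estimates and bars for 95% intervals. All 29 intervals include 0, from D06 at -1.74 to A87 at 1.64.

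ESC and untreated iPSC stood on the same side of the choice and were compared in the same fit. The medians of both groups were used in the choice, so the contrast is not independent of it. Limma called 0 of 24 members, as it called 0% of 273 positions, and 2 members had an unadjusted p under 0.05, against 7.33%. These were B50, with a log2 difference of -2.19 for ESC minus iPSC (SE 0.83, limma adjusted p 0.415), and C71, with -1.80 (SE 0.82, limma adjusted p 0.640). B50 ran from 29.2 over a median of 32.4 to the limit in ESC, against 28.5 to 33 in untreated iPSC, and the groups overlapped. At C71 replicate 1 of ESC line R1 had no Ct, while the other 5 ESC samples lay between 27.7 and 29.2, and without that sample the difference was -0.91. C19, with the next smallest p, had -1.01 (SE 0.80, limma adjusted p 0.996), and -0.61 without untreated clone 1. The 95% intervals had a median half-width of 1.71, and 7 of 24 lay within 2.

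Between the ESC lines D3 and R1, limma called 0 of 23 members, 0% of 273 positions were called, and 0 members had an unadjusted p under 0.05, against 1.1%. B50 had a log2 difference of 2.28 for D3 minus R1 (SE 1.12) and C71 of 2.23 (SE 1.11), both with a limma adjusted p of 1.00. Without replicate 2 of D3 the value of B50 was 1.26, and without replicate 1 of R1 that of C71 was 0.45. A87 had -1.43 (SE 0.98, limma adjusted p 1.00), and -0.80 without replicate 1 of D3. B50 had a Ct of 32.2, 29.2 and 31.5 in D3 and 32.7, 36.3 and 34.5 in R1, so its lines did not overlap in raw Ct, but in relative level D3 at -5.21 overlapped R1 at -4.66. The 95% intervals had a median half-width of 2.32.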

How the data were processed

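Raw threshold cycles of 315 positions in 26 samples were deposited by the authors, with no normalization. The labels' protocols state 303 miRNAs, 5 ng of total RNA in a reverse transcription, 40 PCR cycles and RNU6 as the normalizer. The authors' deposited differences are on a log2 scale per the file headers and run as differences of RNU6-normalized Ct, so that their sign is opposite to a level.

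The reference was the mean Ct of 87 assays on plates A and B, of 26 on C and of 9 on D, with 5 members among them. It holds 12 values below Ct 15. RNU6 was recovered by least squares from the deposited differences (largest residual 4.0e-09 cycles) for 20 samples, without ESC. Limma 3.58.1 in R 4.3.3 (lmFit, eBayes) was fitted to 24 columns, with Benjamini-Hochberg adjustment over all positions tested, meaning those where 50% or more of one group's samples had a Ct below 35. Other steps used numpy 2.4.6, pandas 2.3.3 and matplotlib 3.10.9 under Python 3.11.15.

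On simulated data, averaged over 10 runs, the fit recovered 65.3% of 16-fold and 12.7% of 4-fold changes for activin, 87.0% and 44.0% for ESC against iPSC, and 74.0% and 23.7% for D3 against R1. The labels give the clone of each treated sample, which pairs it with an untreated one. Same-numbered ESC and iPSC samples were not taken as pairs, with correlations from -0.285 to 0.194. All members are named, the 10 with the largest margin with values per group, and 3 per tested contrast by smallest p. B17 there, and the values given for other members, were added after values were seen. Alternatives were other limits, margins, references and filters, replicate blocks, quantile normalization and leaving out samples. The members and lists were chosen with earlier results of these data known.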

Additional observations from a re-analysis of the deposited data

Results flagged for a closer look

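The values of each member in untreated iPSC and in fibroblasts were searched for a sample far from its group, with a test that chance alone meets in about 1 in 20 groups. Of 66 groups 11 had one. In 8 of these the other 4 samples were all at the limit of 35, so that any Ct below 35 would stand apart. These were A48 (34.4), B21 (33.8) and B83 (33.9) in untreated iPSC replicate 2, B56 (34.3) in untreated iPSC replicate 1, A90 (33.1) in untreated iPSC replicate 5, A18 (34.6) in fibroblast replicate 1, B17 (32.3) in fibroblast replicate 2 and B83 (34.6) in fibroblast replicate 3. At A68 and B65, 3 of the 4 other fibroblast samples were at the limit, and replicate 3 had a Ct of 31.9 and 34.2. The reference Ct of fibroblast replicate 3 on plates A and B, 23.2, was the lowest of all samples. The remaining one was A57 in untreated iPSC replicate 1, with a Ct of 26.9 against 26.1 to 26.2 in the other 4 clones. In relative level the same sample did not stand apart, at 1.06 within a range of 0.66 to 1.97.

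The difference between the responses of treated clones 3 and 2 was estimated for 29 members. Each clone had a single untreated sample, and its treated samples were counted as separate. The log2 differences, clone 3 minus clone 2, ran from -5.57 at B33 (SE 2.96) to 2.59 at B46 (SE 1.53), with -4.89 at C10 (SE 2.81). With a single untreated sample per clone, it cannot be said whether the clones responded alike.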

How the results depend on the processing

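Of the settings run, a limit of 32 cut the list most. It left 20 positions meeting the rule (all among the 33), 7 members without overlap (2.54% of all positions) and a median distance of 3.19 cycles from hepatocytes, and it turned the margins of B18 (-0.092), B83 (-0.74), D06 (-0.64), D23 (-1.06) and B65 (-0.10). A limit of 40 gave 48 positions, 18 members without overlap (7.3%) and a median of 5.85. A required margin of 2 left 21 positions and one of 0.5 gave 39. One mean Ct over all plate sets gave 31 positions and turned the margins of D26 (-0.038), C71 (-0.015) and C47 (-0.26). The median Ct of the reference rows, added after the data were seen, gave 28 positions (26 of the 33), a median of 4.67 and a margin of -0.51 at D23. With RNU6 the median was 7.51, and the activin difference of B46 was 0.27. Leaving out 1 sample at a time, the list held 30 to 45 positions, members without overlap numbered 16 to 21 (5.71% to 7.3% of all positions without an islet sample), and the median distance was 4.43 to 5.34. Of 858 recomputed margins, 798 moved by less than the spread between islet samples, 51 moved more and 9 turned. At 14 of 33 members the margin stayed at 1 or more in all 26 settings.

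The members called by limma numbered 0 for activin in all 18 alternatives, 0 for ESC against iPSC in all 19 and 0 for D3 against R1 in all 14. These included fits with a replicate block: with clone as the block 0 of 29 members were called for activin and 4 had an unadjusted p under 0.05, against 0% and 8.45% of 284 positions in a fit that counts both treated samples of a clone, and with the replicate number as the block 0 were called in both ESC comparisons, with 1 member each at an unadjusted p under 0.05, against 5.49% of all positions for ESC against iPSC and 1.47% for D3 against R1. In simulated data of this size many 4-fold changes were missed.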
